A study of Mus musculus with 6 samples.

Results

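Genes of fibroblast activation and TGF-beta signaling were examined in the kidneys of cisplatin-treated WT and Trpm2-/- mice. They were 9 genes chosen by name from the 54532 genes of the deposited tables: the ligands Tgfb1 and Tgfb2, the receptor Tgfbr1, the PDGF receptors Pdgfra and Pdgfrb, and the activated stroma genes Acta2, Fn1, Postn and Ctgf (also named Ccn2), with collagens left out. RNA was sequenced from kidney tissue of 3 WT mice and 3 Trpm2-/- mice of the C57BL/6J strain, aged 6 to 8 weeks per the labels, while the study's methods give an older range and males. Every mouse had received 18 mg/kg cisplatin, a platinum drug toxic to renal tubules, 72 h before the kidneys were taken, and untreated kidneys were not analysed here. The Trpm2-/- mice carry an allele without the exons for part of the transmembrane region of TRPM2, a calcium-permeable channel opened under oxidative stress, and form no functional channel. WT mice were purchased and the Trpm2-/- line came from another source, so genotype and colony cannot be told apart.

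TGF-beta is secreted in a latent form and held in the matrix until integrins or proteases release it. The active ligand joins the type II receptor with the type I receptor encoded by Tgfbr1, which phosphorylates SMAD2 and SMAD3, and these enter the nucleus with SMAD4. In the injured kidney, the pathway is known for inducing matrix genes in interstitial fibroblasts and pericytes, the cells that carry PDGF receptors alpha and beta and turn into contractile myofibroblasts. Tubular cells, endothelium and leukocytes also express many of these genes, and in whole tissue, fewer cells of a type and less RNA per cell cannot be told apart.

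Total counts on genes were 14053307 to 17150089 per library, and 3 counts of the total corresponded to 0.175 to 0.213 CPM (counts scaled to library size), a limit for counting error only. Trpm2 was low everywhere, with 5 to 27 counts in WT and 10 to 20 in Trpm2-/- kidneys, and since the rest of the gene is still counted after the deletion, these values do not test the labels. Mitochondrially encoded genes took 4.43 to 4.72% of counts in WT and 7.91 to 11% in Trpm2-/- libraries, and without them the same number of the 9 genes was called. The WT mice are numbered 1, 2 and 3 and the Trpm2-/- mice 1, 2 and 4. A pair of libraries stood apart in cell markers. WT mouse 1 held 49.2 CPM of 5 urothelial markers summed, against 6.37 to 12 CPM in the other libraries. Trpm2-/- mouse 4 held the most podocyte, endothelial and fibroblast marker RNA.

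Of the 9 genes, 8 passed the filter on low counts and were tested, and 4 of them were higher in Trpm2-/- kidneys at an adjusted p under 0.05: Ctgf, Fn1, Acta2 and Tgfb1. None was lower by edgeR's quasi-likelihood test, 0 of 8 at an unadjusted p under 0.05 as well, and 0 by DESeq2 and limma-voom. Calls numbered 2 without WT mouse 1 or without WT mouse 2. Over all 15816 genes tested, 4.74% were called higher and 7.28% lower at this threshold. By the rule in the study's methods, an absolute log2 fold change above 1 with a p under 0.05 (taken as unadjusted), 3 of the genes were higher (Ctgf, Fn1 and Acta2), against 3.50% of all genes higher and 4.10% lower. For the same 4 genes, all Trpm2-/- kidneys lay above all WT kidneys, which held for 16.7% of all genes tested. The median log2 fold change of the 8 genes was 0.50, beside 0.02 over all genes tested. The 9 genes were chosen with earlier results of these data known, so these shares are a description and not a test of enrichment.

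**Figure D1:**
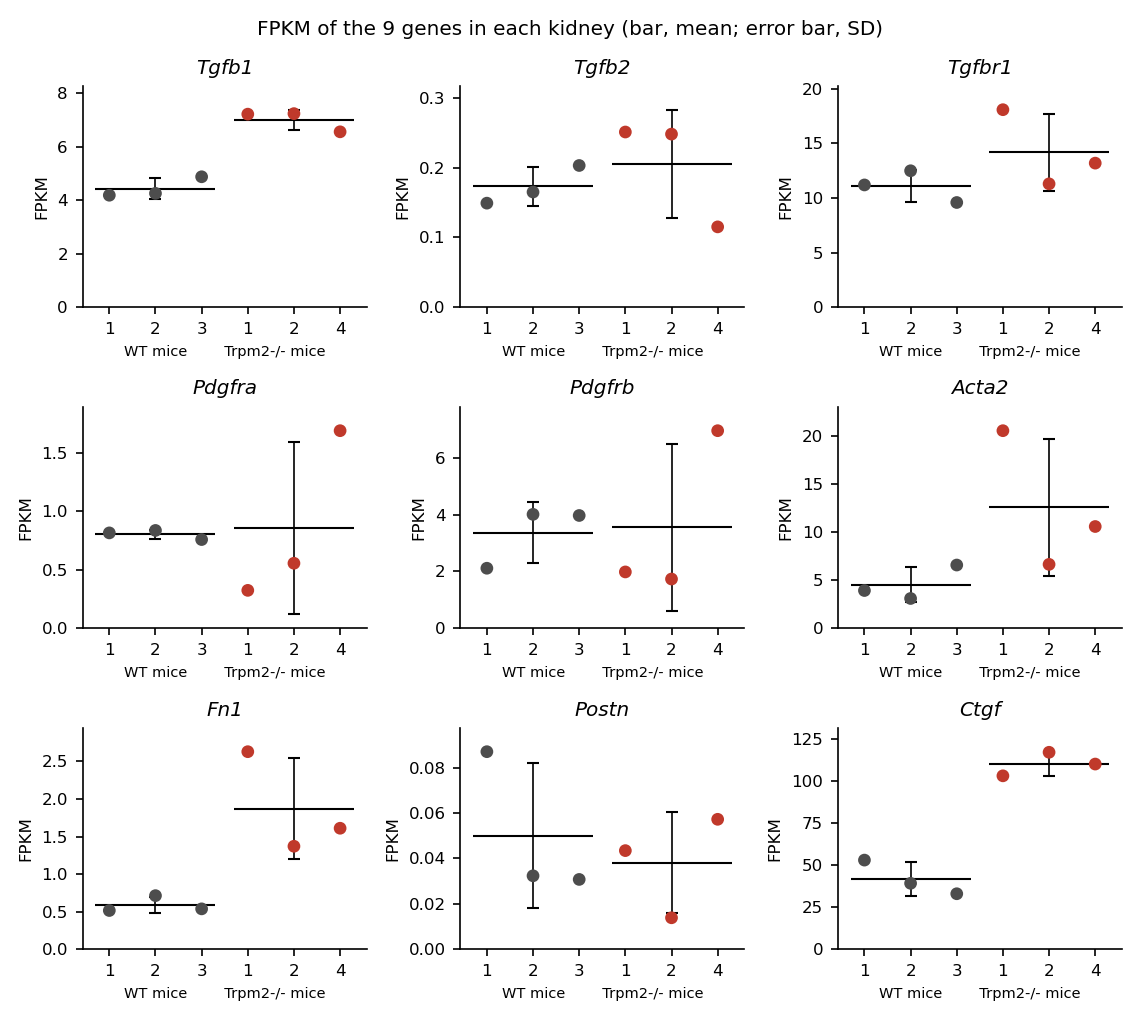
FPKM (fragments scaled to gene length and library size) of the 9 genes in each kidney, with 1 panel per gene, a linear axis from 0, the mouse number on the horizontal axis, WT mice in grey, Trpm2-/- mice in red, bars for means and error bars for SD (n = 3). Trpm2-/- points lie above all WT points for Tgfb1, Acta2, Fn1 and Ctgf, while Pdgfra and Pdgfrb are highest in Trpm2-/- mouse 4 and not separated by genotype.

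Tgfb1 encodes the main TGF-beta isoform of the injured kidney. Its sequence before the start site is shown because Tgfb1 was the ligand called higher. No test compared it with the other ligands. The 250 bases upstream, from RefSeq on GRCm38.p6, plus strand, chr7:25686752-25687001, overlap no annotated exon, and capitals mark GC boxes, the motif GGGCGG or CCGCCC on the other strand, to which Sp1 binds:

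Tgfb1: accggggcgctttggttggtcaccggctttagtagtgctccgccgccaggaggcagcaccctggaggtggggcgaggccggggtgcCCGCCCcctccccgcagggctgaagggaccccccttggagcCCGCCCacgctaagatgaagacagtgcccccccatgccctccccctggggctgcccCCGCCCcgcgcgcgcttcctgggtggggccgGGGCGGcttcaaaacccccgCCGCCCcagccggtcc

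The upstream bases held 5 GC boxes, and 1 more followed within the next 50 bases. At least 1 GC box occurred in 35.7% of 32851 promoters of the same length, and at least as many as in Tgfb1 in 1.35%. RefSeq promoters were matched for 6 of the 9 genes, and among the other 5 Tgfbr1 had 2 GC boxes before 1 of its 2 start sites and Tgfb2, Pdgfra, Acta2 and Postn had 0.

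Tgfb1 (chromosome 7, 25687002 to 25705077, positions of all genes as deposited, on GRCm38) had 24.1, 24.5 and 28.2 CPM in WT kidneys and 41.3, 41.6 and 37.2 CPM in Trpm2-/- kidneys. The 3 Trpm2-/- values were close to each other and all above the WT values, with 40 ± 2.46 against 25.6 ± 2.26 CPM (SD, n = 3). This was a log2 fold change of 0.65 with a standard error of 0.131 (adjusted p = 0.0142). Every adjusted p here comes from the quasi-likelihood test of edgeR, adjusted by Benjamini-Hochberg. The size stayed between 0.60 and 0.72 with any 1 mouse left out, but the adjusted p rose to 0.0526 without WT mouse 1 and to 0.0842 without WT mouse 2. Platelets store this ligand. Their markers Pf4 and Ppbp had summed levels of 0.245 to 0.964 CPM in WT and 1.43 to 1.78 CPM in Trpm2-/- kidneys. Only Ppbp parted the genotypes, with 0 to 0.514 CPM in WT and 1.09 to 1.31 CPM in Trpm2-/- kidneys, and it was not called (adjusted p = 0.105). Pf4 overlapped between genotypes and, with 2 to 10 counts, was left out of the test. The part of platelets in the result was not tested.

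Tgfb2 (chromosome 1, 186622792 to 186705989), a second ligand, had few reads. Its counts were 16, 17 and 22 in WT and 27, 24 and 12 in Trpm2-/- libraries. Trpm2-/- mouse 4 had the lowest value and the other Trpm2-/- mice the highest, so the genotypes overlapped. The log2 fold change was 0.23 with a 95% interval from -0.74 to 1.20 (adjusted p = 0.773), so a change within these bounds could not be told from none. The third ligand, Tgfb3, was as low, with 0.74 to 1.87 CPM over the 6 kidneys and a log2 fold change of 0.34 (adjusted p = 0.667).

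Tgfbr1 (chromosome 4, 47353222 to 47414931) had 83.6, 93.3 and 71.9 CPM in WT kidneys and 135, 84.0 and 97.4 CPM in Trpm2-/- kidneys. Trpm2-/- mouse 1 was the highest, and Trpm2-/- mouse 2 lay within the WT range. This type I receptor had a log2 fold change of 0.35 with a 95% interval from -0.07 to 0.76 (adjusted p = 0.261), and 0.13 to 0.48 with 1 Trpm2-/- mouse left out. Tgfbr2, the type II receptor, had 152, 124 and 118 CPM in WT and 259, 175 and 173 CPM in Trpm2-/- kidneys. These groups did not overlap, yet its log2 fold change of 0.63 missed the threshold (adjusted p = 0.0562).

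Ctgf (chromosome 10, 24595442 to 24598683), a matricellular CCN protein and a classic target of TGF-beta and of YAP with TEAD factors, had the smallest p of the 8 genes tested. It had 173, 128 and 108 CPM in WT kidneys and 334, 383 and 356 CPM in Trpm2-/- kidneys. The lowest Trpm2-/- value was far above the highest WT value, with means of 358 ± 24.8 and 136 ± 33.1 CPM (SD, n = 3), a ratio of 2.63. On the log2 scale the fold change was 1.39 with a standard error of 0.182 (adjusted p = 0.00282), and it was called under each of the alternatives run.

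Its CCN paralog Cyr61, also induced by YAP, was not called. Cyr61 had 277, 231 and 254 CPM in WT kidneys and 240, 261 and 443 CPM in Trpm2-/- kidneys, a log2 fold change of 0.31 (adjusted p = 0.405). Only Trpm2-/- mouse 4 lay above the WT range. The ratio of Ctgf to Cyr61 CPM, chosen after the values were seen, was 0.623, 0.554 and 0.426 in WT and 1.39, 1.47 and 0.804 in Trpm2-/- kidneys, a difference of 1.16 on the log2 scale. The exact permutation test, two-sided, gave p = 0.1, which is the lowest value possible with 3 mice against 3. The other CCN genes Nov, Wisp1, Wisp2 and Wisp3 had too few counts to be tested, with at most 1.18 CPM.

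Fn1 (chromosome 1, 71585520 to 71653200) encodes fibronectin, the matrix glycoprotein on which collagen is laid down. It had 6.85, 9.51 and 7.18 CPM in WT kidneys and 34.9, 18.2 and 21.2 CPM in Trpm2-/- kidneys. Trpm2-/- mouse 1 was the highest, and each Trpm2-/- kidney was well above the WT range. Its log2 fold change, 1.66 with a standard error of 0.266 (adjusted p = 0.00549), was the largest of the 8 tested and was called under each alternative. A gene-level count does not separate the splice form with the extra domain A exon, which is linked to fibrosis, from the form without it.

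Acta2 (chromosome 19, 34241090 to 34255336) encodes smooth muscle alpha-actin, the marker of myofibroblasts and of arteriolar smooth muscle. A 30-base stretch of its promoter is shown because it holds the letters GGAATG, the reverse complement of the M-CAT core bound by TEAD factors, in capitals. It lies on the minus strand of GRCm38.p6 at chr19:34255502-34255531 in the RefSeq table, in a longer first exon of the GENCODE annotation:

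Acta2: gagcagaacagaGGAATGcagtggaagaga

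The motif began 146 bases before the start site, and 14.7% of all promoters held it on either strand. The CArG motif, to which serum response factor binds, had no match by letters in the promoter window searched and a match in 1.63% of promoters. AP-1 (TGANTCA) also had none against 7.81%. A search by letters misses sites that depart from the motif, so no match does not show that serum response factor has no site here. Acta2 had 7.96, 6.30 and 13.4 CPM in WT kidneys and 41.6, 13.5 and 21.2 CPM in Trpm2-/- kidneys. The genotypes barely parted, since Trpm2-/- mouse 2 and WT mouse 3 were almost level, and Trpm2-/- mouse 1 carried much of the difference. The fitted log2 fold change was 1.46 with a standard error of 0.408 (adjusted p = 0.0467). It was 0.91 (adjusted p = 0.146) without Trpm2-/- mouse 1, and the adjusted p was 0.122 without WT mouse 1, 0.158 without WT mouse 2 and 0.0545 without Trpm2-/- mouse 4.

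Postn (chromosome 3, 54361109 to 54391037) encodes periostin, a matricellular protein of activated fibroblasts. It had 14, 5 and 5 counts in WT and 7, 2 and 9 counts in Trpm2-/- libraries, and was not tested. These values lie near the limit of 3 counts, WT mouse 1 was the highest, and the genotypes overlapped.

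Pdgfra (chromosome 5, 75152292 to 75198215) marks interstitial fibroblasts. It had 9.31, 9.57 and 8.71 CPM in WT kidneys and 3.67, 6.35 and 19.1 CPM in Trpm2-/- kidneys. The WT values were nearly equal, while Trpm2-/- mice 1 and 2 lay below them and Trpm2-/- mouse 4 far above. The log2 fold change was 0.08 with a 95% interval from -1.02 to 1.18 (adjusted p = 0.939), and it turned to -0.87 (adjusted p = 0.0799) without Trpm2-/- mouse 4.

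Pdgfrb (chromosome 18, 61045150 to 61085061), carried by pericytes, mesangial cells and vascular smooth muscle, had 13.2, 25.1 and 25.0 CPM in WT kidneys and 12.3, 10.8 and 42.9 CPM in Trpm2-/- kidneys. Trpm2-/- mouse 4 was again the highest, and the other Trpm2-/- mice lay just below WT mouse 1. The log2 fold change was 0.06 with a 95% interval from -1.02 to 1.15 (adjusted p = 0.952). It turned to -0.86 without Trpm2-/- mouse 4 (adjusted p = 0.0876) and to -0.19 without WT mouse 1 (adjusted p = 0.855). With both left out, a setting chosen after the data were seen, it was -1.10 (adjusted p = 0.0163), so the sign for Pdgfrb turned with either library and that for Pdgfra with Trpm2-/- mouse 4. The sign of both was also negative in limma-voom and in limma on log2 FPKM.

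**Figure D2:**
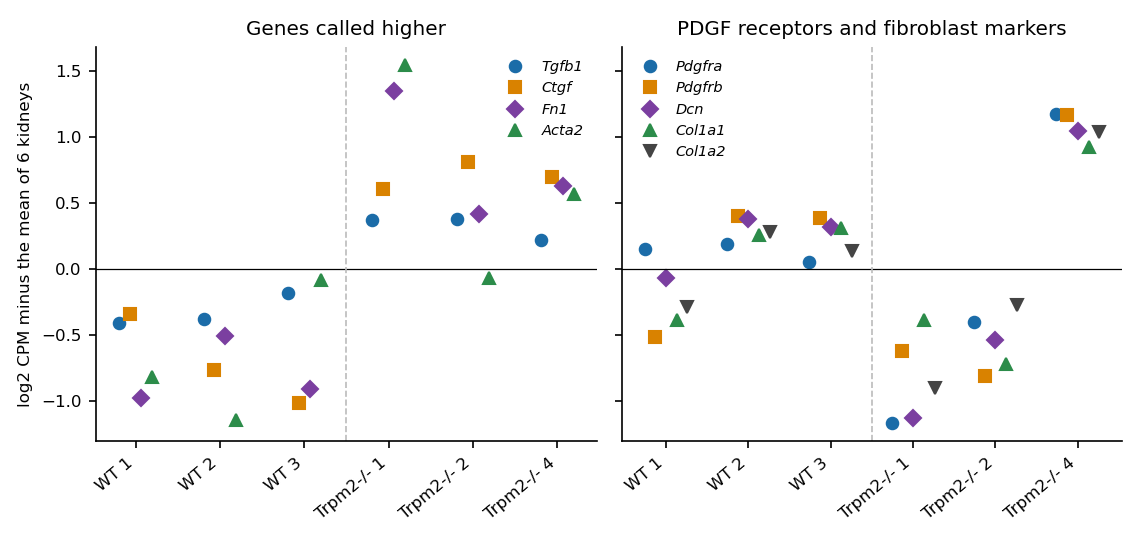
log2 CPM of each kidney minus the mean of the 6 kidneys (vertical axis) for the 4 genes called higher (left) and for the PDGF receptors with 3 fibroblast markers (right), the dashed line parting WT from Trpm2-/- mice. On the left the Trpm2-/- kidneys lie above the WT kidneys for each gene, and on the right Trpm2-/- mouse 4 lies above all others and Trpm2-/- mice 1 and 2 lie lowest for Pdgfra, Pdgfrb and Dcn.

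The fibroblast markers Col1a1, Col1a2, Dcn, Lum, Dpt and Pdgfra, a list that holds 1 of the PDGF receptors, were also highest in sum in Trpm2-/- mouse 4. Their summed level was 42.2, 58.5 and 55.3 CPM in WT kidneys and 25.8, 35.6 and 99.9 CPM in Trpm2-/- kidneys, and 0 of the 5 tested were called in either direction by edgeR, 0 at an unadjusted p under 0.05, and 0 by DESeq2 or limma-voom. Lum, a defining fibroblast proteoglycan, was at or near 0, with at most 0.623 CPM. Markers of pericytes, smooth muscle and mesangium, which include Pdgfrb, summed to 103 to 134 CPM in WT and 120 to 182 CPM in Trpm2-/- kidneys, with 0 of 7 called by edgeR. At an unadjusted p under 0.05, 4 of these (Notch3, Myh11, Mcam and Itga8) were higher, against 14.0% of all genes. DESeq2 called 3 higher and limma-voom 1, against 6.92% and 4.41% of all genes. Itga8, an integrin of mesangial cells, had 15.6 CPM in Trpm2-/- mouse 4, 2.94 and 1.57 CPM in the other Trpm2-/- mice and 1.09 to 1.73 CPM in WT kidneys. The part of these cells in the change of Acta2 was not tested.

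Side by side within each kidney, the ratio of Fn1 to Pdgfrb CPM was 0.519, 0.379 and 0.287 in WT kidneys and 2.84, 1.69 and 0.493 in Trpm2-/- kidneys. For Acta2 the ratio to Pdgfrb was 0.603, 0.251 and 0.538 in WT and 3.38, 1.25 and 0.493 in Trpm2-/- kidneys, and for Ctgf it was 13.1, 5.09 and 4.32 against 27.1, 35.5 and 8.29. In each of these ratios Trpm2-/- mouse 4, which had the most Pdgfrb, lay within the WT range and the other Trpm2-/- mice above it. For Tgfb1 the ratio to Pdgfrb was 1.82, 0.974 and 1.13 in WT and 3.35, 3.85 and 0.866 in Trpm2-/- kidneys, with Trpm2-/- mouse 4 below the WT range. The ratios were chosen after the values were seen, Pdgfrb of Trpm2-/- mouse 4 included, and all overlapped between genotypes. The exact permutation test, two-sided, gave p = 0.2 for Fn1, 0.3 for Acta2, 0.2 for Ctgf and 0.4 for Tgfb1.

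Of the other cell types, proximal tubule markers differed most clearly. All 6 proximal tubule markers fell, with summed levels of 1922 to 2596 CPM in WT and 433 to 875 CPM in Trpm2-/- kidneys. Markers of injured tubules summed to 2749 to 3270 CPM in WT and 3821 to 4825 CPM in Trpm2-/- kidneys, where 1 of 4, the keratin Krt20, was called higher. Of the 5 urothelial markers, Upk3a was called lower (adjusted p = 0.0175), but not by limma-voom. It had 219, 12 and 54 counts in WT and 0, 4 and 2 in Trpm2-/- libraries. Upk1a was also lower in each Trpm2-/- kidney than in any WT kidney, a separation not counted over all genes, and was not called (adjusted p = 0.0715). Upk1b, not tested, had 214, 6 and 25 counts in WT and 3, 0 and 2 in Trpm2-/- libraries. Upk2, also not tested, had 56, 1 and 17 against 1, 0 and 0 counts, too few to part the genotypes. Krt5 overlapped. Endothelial markers spanned 87.9 to 132 CPM in WT and 58.0 to 200 CPM in Trpm2-/- kidneys, podocyte markers 125 to 167 and 143 to 478 CPM, both overlapping between genotypes and highest in Trpm2-/- mouse 4. Macrophage markers spanned 102 to 128 and 76.1 to 101 CPM, with C1qa called lower (adjusted p = 0.0401), but not by limma-voom. C1qa had 4.93, 19.7 and 23.3 CPM in WT and 5.63, 1.98 and 4.05 CPM in Trpm2-/- kidneys, so the genotypes overlapped. C1qb, Csf1r, Adgre1 and Cd68 were not called, with log2 fold changes from -1.16 for C1qb to -0.06 for Cd68. The markers of ureteral and pelvic smooth muscle (Actg2, Des and Cnn1) summed to 5.72 to 7.55 CPM in WT and 6.18 to 20.2 CPM in Trpm2-/- kidneys, and dividing cell markers to 4.48 to 8.33 and 7.91 to 21.1 CPM, and both overlapped between genotypes. The part of these cell types in the change of the 4 genes was not tested.

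Levels between the genes were compared per length, in FPKM. In WT kidneys Ctgf was the highest with 41.6 ± 10.2, followed by Tgfbr1 with 11.1 ± 1.46 (SD, n = 3). Acta2 (4.53 ± 1.82) and Tgfb1 (4.43 ± 0.378) came next and did not differ beyond their spread. Pdgfrb (3.37 ± 1.09), Pdgfra (0.803 ± 0.0405), Fn1 (0.587 ± 0.109), Tgfb2 (0.173 ± 0.0277) and Postn (0.05 ± 0.0321) followed, each separated from the next. In Trpm2-/- kidneys Ctgf stood at 110 ± 7.35 and again above the rest, Fn1 (1.87 ± 0.67) ranked above Pdgfra (0.857 ± 0.734), and all neighbours from Tgfbr1 to Pdgfra overlapped in their ranges.

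**Figure D3:**
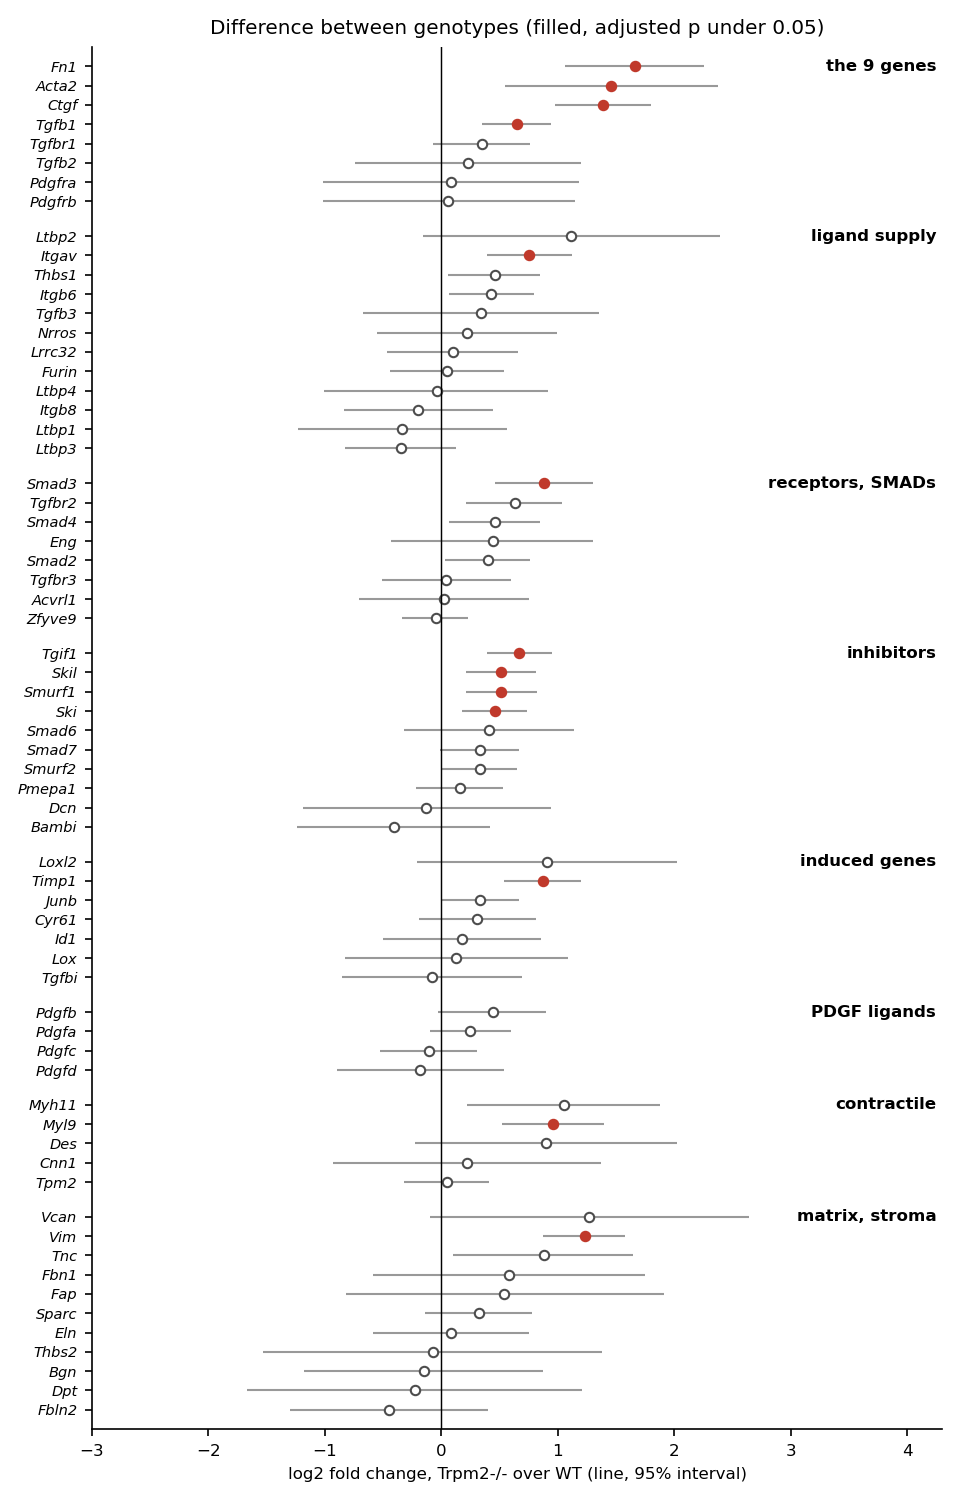
log2 fold change of Trpm2-/- over WT kidneys (horizontal axis) with its 95% interval for the tested genes of the 9 and of the lists fixed for TGF-beta signaling, PDGF ligands and stroma, filled where the adjusted p is under 0.05. Filled points all lie above 0, and the intervals of Pdgfra and Pdgfrb run from -1.02 to 1.18 and from -1.02 to 1.15.

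Around the 9 genes, 39 other genes of TGF-beta signaling were listed by role, of which 37 were tested. Of the tested genes, 7 were called higher and 0 lower (18.9% higher, against 4.74% of all genes), and their median log2 fold change was 0.33. The lists too were chosen with earlier results known, so the shares do not test enrichment. The 2 not tested were Tagln, a smooth muscle gene with at most 0.498 CPM, and Snai1, a transcription factor of mesenchymal change with at most 1.31 CPM. No gene of these lists passed the rule of the study's methods.

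Among the 12 genes of ligand supply, 1 was called, Itgav. It encodes integrin alpha-v, whose dimers pull TGF-beta out of its latent complex. It went from 240, 256 and 245 CPM to 512, 356 and 381 CPM, a log2 fold change of 0.75 (adjusted p = 0.0183), which was no longer called without any 1 of the WT mice (adjusted p up to 0.0938). Its epithelial partner Itgb6 had 196, 209 and 171 CPM in WT and 289, 282 and 206 CPM in Trpm2-/- kidneys (adjusted p = 0.118), so Trpm2-/- mouse 4 lay within the WT range. Latent TGF-beta binding proteins showed no common direction, with log2 fold changes from -0.35 for Ltbp3 to 1.11 for Ltbp2, neither past the threshold.

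Of 8 receptor and SMAD genes, Smad3 was called, with 68.3, 64.3 and 59.0 CPM in WT and 143, 126 and 84.9 CPM in Trpm2-/- kidneys. For this signal transducer the log2 fold change was 0.88 (adjusted p = 0.0170), and the call was lost without WT mouse 2 or 3 (adjusted p up to 0.0864). Smad2 and Smad4 had log2 fold changes of 0.40 and 0.46, neither past the threshold (adjusted p = 0.147 and 0.12). For both, all Trpm2-/- kidneys lay above all WT kidneys, as for 16.7% of all genes tested. Eng and Acvrl1, endothelial receptors of the family, had log2 fold changes of 0.44 and 0.02. Eng had 133 CPM in Trpm2-/- mouse 4, 42.4 and 50.5 CPM in the other Trpm2-/- mice and 42.5 to 69.9 CPM in WT kidneys.

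The list with the most calls was that of inhibitors, with 4 of 10 higher, against 4.74% of all genes. This lead depended on the threshold. At an unadjusted p under 0.05, 5 of the 10 inhibitors and 4 of the 8 receptor and SMAD genes were higher, against 14.0% of all genes. Tgif1, a corepressor of SMADs, went from 79.8, 79.4 and 74.6 CPM to 133, 126 and 112 CPM (log2 fold change 0.67, adjusted p = 0.00932). Smurf1, a ubiquitin ligase for the receptor, had a log2 fold change of 0.51, and the SMAD corepressors Skil and Ski had 0.51 and 0.46 (adjusted p = 0.0382, 0.0382 and 0.0435). Tgif1 was not called without WT mouse 2 or 3 (adjusted p up to 0.0713). Ski and Skil were not called without Trpm2-/- mouse 1 or 4 or any 1 of the WT mice, nor Smurf1 without Trpm2-/- mouse 1 or 2 or any 1 of the WT mice (adjusted p up to 0.219 over all alternatives). Smad7, the inhibitory SMAD that the pathway induces, had 0.33 (adjusted p = 0.190), and the pseudoreceptor Bambi had -0.41 (adjusted p = 0.510).

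Of 7 tested genes known to be induced by TGF-beta, 1 was called higher, Timp1. Timp1, an inhibitor of matrix metalloproteinases, had 13, 13.5 and 12.4 CPM in WT and 23.8, 24.6 and 22.4 CPM in Trpm2-/- kidneys, narrow ranges with a log2 fold change of 0.87 (adjusted p = 0.00683) that was called under each alternative. The extracellular matrix protein Tgfbi, named for its induction by the ligand, had -0.08, and Lox, which crosslinks collagen, had 0.13.

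None of the 4 PDGF ligands was called (0 of 4 by edgeR, 0 at an unadjusted p under 0.05, 0 by DESeq2 and limma-voom). Pdgfb had the largest log2 fold change, 0.44 (adjusted p = 0.200), and Pdgfd the lowest, -0.18. Of 7 contractile genes, 5 were tested and Myl9, a myosin light chain, was called higher. It had 8.14, 8.29 and 11.5 CPM in WT and 19.5, 16.9 and 18.1 CPM in Trpm2-/- kidneys (log2 fold change 0.96, adjusted p = 0.0142), with the call lost without WT mouse 2 (adjusted p up to 0.0760). Myh11, the smooth muscle myosin heavy chain, had 6.78, 6.30 and 9.08 CPM and 25.0, 8.26 and 12.6 CPM (log2 fold change 1.05, adjusted p = 0.0964), highest in Trpm2-/- mouse 1 as Acta2 was. Actg2 and Tagln had too few counts to be tested.

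Among 15 genes of non-collagen matrix and activated stroma, 11 were tested and 1 was called, Vim. Vimentin is an intermediate filament of mesenchymal cells that injured tubular cells also make. Vim had 82.0, 65.7 and 59.3 CPM in WT and 158, 146 and 180 CPM in Trpm2-/- kidneys, a log2 fold change of 1.23 (adjusted p = 0.00261), called under each alternative. Lum, Mfap5, Thy1 and S100a4 were not tested, with at most 0.751 CPM. Dcn and Bgn, small proteoglycans of interstitial matrix, had log2 fold changes of -0.13 and -0.15, and without Trpm2-/- mouse 4 both were called lower, at -1.04 and -1.0 (adjusted p = 0.0418 and 0.0425).

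The genes whose log2 CPM, centred on the mean of 6 kidneys, lay nearest to each called gene were named by the root mean square difference. Nearest to Tgfb1 were Pvr (0.061), Olfr49 (0.073) and Prkab2 (0.074), and nearest to Fn1 were Cep170 (0.104), Mid1 (0.186) and Lrch3 (0.187). Nearest to Ctgf were Camkk1 (0.143), Nptx2 (0.156) and Eid3 (0.156). For Acta2 they were Itih4 (0.272), Myh11 (0.284) and Olfr1033 (0.287), so its pattern had no match as near as those of the other 3. Olfr49, Itih4 and Olfr1033 had low mean levels, at 0.612, 1.33 and 1.55 CPM, and were not called. Nearness over 6 kidneys does not show that genes are regulated together.

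**Figure D4:**
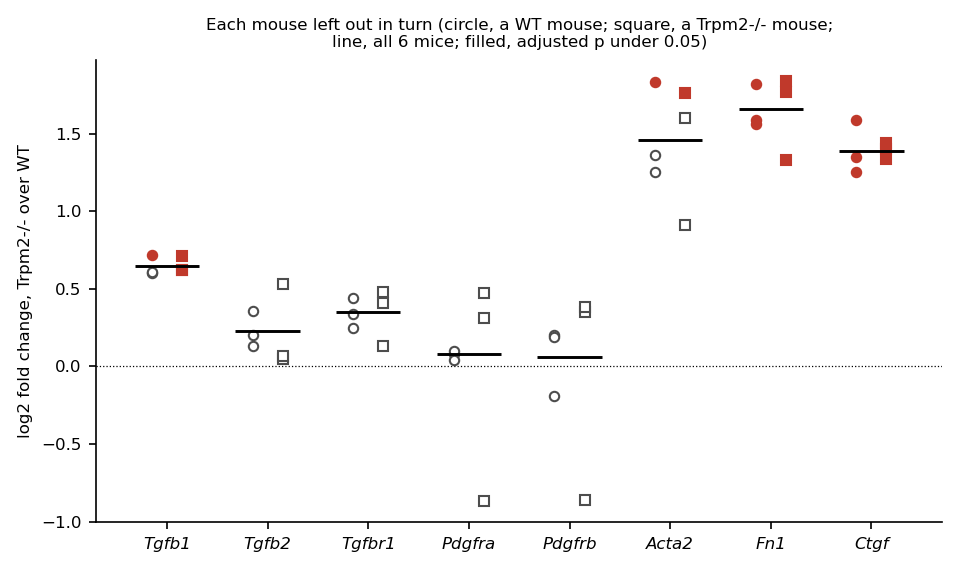
log2 fold change of Trpm2-/- over WT kidneys (vertical axis) for the 8 tested genes with each mouse left out in turn, circles for a WT mouse, squares for a Trpm2-/- mouse, the line for all 6 mice, and filled symbols where the adjusted p is under 0.05. Ctgf and Fn1 stay filled throughout, Acta2 falls to 0.91 without Trpm2-/- mouse 1, and both PDGF receptors drop to about -0.87 and -0.86 without Trpm2-/- mouse 4.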

How the data were processed

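RNA of kidney tissue was sequenced with the NEBNext Ultra II kit on an Illumina HiSeq instrument. The submitters' processing notes name HISAT2, StringTie and the build mm9, without versions. Gene positions of the table equal those of GRCm38 for 8 of the 9 genes. Acta2, on the minus strand, differs on the side of its start site. There its position is 34255336 as deposited and 34255590 in the GENCODE M21 annotation. The counting tool and strand setting are not given in the sources used here. Counts per gene were deposited by the authors without normalization. The authors also deposited FPKM values, which were used for levels between genes and as an alternative.

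Differential expression used edgeR 4.0.16 in R 4.3.3 (filterByExpr defaults, TMM, quasi-likelihood test, two-sided) on a model with genotype only, and p-values were adjusted over all 15816 genes tested. CPM values use TMM library sizes. Intervals are 95% from the test's standard error and degrees of freedom. DESeq2 1.42.0 and limma 3.58.1 served in alternatives, and Python 3.11.15 in the remaining steps. Simulated counts with 198 tested genes changed by a fold of 4 were used to check the tests (186 recovered by edgeR, 6 other genes called). The changes of the 9 genes were smaller than this fold, so the check does not give the power at their size. Replicates are separate mice, and chi-square per degree of freedom between replicate libraries was 13.5 to 36.7.

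The 9 genes and the lists around them were chosen with earlier results of these data known, and 1 gene of the lists is not reported here. Genes were named by a rule: each of the 9, the called and the untested genes of each list, and the 3 nearest patterns of each called gene, predicted and mitochondrial genes left out. Other genes named are markers or members that missed the threshold, chosen after their values were seen. Of the 9 genes, 0% of 75-base transcript windows occur in another gene. Exons of other genes, nearly all antisense, overlap Tgfb2, Pdgfra, Fn1 and Ctgf, and these overlapping genes had at most 10 counts in any library.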

Additional observations from a re-analysis of the deposited data

How the results depend on the processing

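The alternatives were other normalizations, tests, filters and units, a replicate block, each mouse left out, and, chosen after the data were seen, WT mouse 1 and Trpm2-/- mouse 4 both left out. Ctgf and Fn1 were called higher in all 17. Tgfb1 kept its direction and was not called in 3, and Acta2 was not called in 8, among them limma-voom and limma on log2(FPKM + 1) and log2(FPKM + 0.1). Of the 9 genes, 2 to 4 were called higher with 1 mouse left out, and with both mice left out 2 were higher and 1 (Pdgfrb) lower. Sign changes were seen for Pdgfra, with -0.26 (limma-voom), -0.03 and -0.19 (limma on FPKM plus 1 and 0.1), -0.96 (replicate block), -0.86 (both mice left out) and -0.87 to 0.47 (1 mouse left out). Pdgfrb gave -0.16, -0.09, -0.16, -0.66, -1.10 and -0.86 to 0.38 in the same order. The replicate block values draw on neither Trpm2-/- mouse 4 nor WT mouse 3, which had no partner of the same number. They are thus not independent of the values without Trpm2-/- mouse 4. The causes of the sign changes were not tested.

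Over all genes, 750 were called higher and 1152 lower. These counts were 1262 and 1692 with no filter, 553 and 649 by the rule of the study's methods, and 160 to 819 and 470 to 1240 with 1 mouse left out, lowest without WT mouse 2 or 3. From the pathway lists, 9 genes were called higher and 0 lower, 2 higher by the study's rule, and 2 to 11 higher and 0 to 2 lower with 1 mouse left out. The higher count fell by over 1.5 times without any 1 WT mouse (2 without WT mouse 2), and Dcn and Bgn were lower without Trpm2-/- mouse 4 and Itgb8 without Trpm2-/- mouse 1. With both mice left out, 2 were lower (Dcn and Bgn). With the replicate block the counts were 341 and 661 over all genes and 5 in the lists, and the 4 genes stayed called. The genotype difference in this fit comes from mice 1 and 2 of each genotype only. WT mouse 3 and Trpm2-/- mouse 4 had no partner of the same number, so these calls are not a check on all mice. Deviations of same-numbered mice from their genotype means correlated at 0.064 and -0.012, and those of differently numbered mice at -0.248 to 0.217. With so few mice these values cannot decide whether the numbers pair the mice. Postn and Tgfb2 had the fewest counts of the 9 genes, and Postn was not tested.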
